A study of Mus musculus with 6 samples.

Results

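The platelet-derived growth factor (PDGF) family was examined in mouse bone marrow, in cells that make stem cell factor and in unselected marrow. Its members are 7 genes chosen by name: the receptors Pdgfra and Pdgfrb, the receptor-like gene Pdgfrl and the ligands Pdgfa, Pdgfb, Pdgfc and Pdgfd. All 7 were measured, each by a single row of the array, among 19938 genes in all. Scf-GFP+ cells carry a green fluorescent protein in the gene of stem cell factor, Kitl, and came from young adult mice heterozygous for that knock-in on a C57BL/6 background. Whole bone marrow cells came from wild-type young adult mice of the same background. There were 3 Affymetrix Mouse Gene ST 1.0 arrays for each group, 6 in all, each from 5000 sorted cells. The Scf-GFP+ cells were sorted in a double pass and carry a Kitl allele with the knock-in, so cell population, genotype and handling differed together between the groups and cannot be told apart. Sex differed in part between the groups as well, by the Xist and Eif2s3y values given below. Replicates are labelled as independent aliquots with no animals named, so the p-values cover only the spread between the aliquots. Scf-GFP+ replicate 3 differed from replicates 1 and 2 in the sex-linked transcripts given below, so in that group the spread is not only technical. In whole marrow it may be.

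PDGFs are secreted dimers that act on receptor tyrosine kinases and drive the growth and migration of mesenchymal cells. The alpha receptor (Pdgfra) binds the A, B and C chains, and the beta receptor (Pdgfrb) binds the B and D chains. In vessels, endothelial PDGF-B recruits pericytes that carry the beta receptor. Platelets and the megakaryocytes that shed them store PDGF, and both receptors are known markers of bone marrow stromal and perivascular cells.

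Promoter sequences are shown for the alpha receptor and for the ligand Pdgfd, which were both far higher in Scf-GFP+ cells. Pdgfrb was far higher as well, but no RefSeq window was found for it. The sequences are the RefSeq bases before the start, 5′ to 3′, build GRCm38.p6, plus strand. Pdgfra lies at chr5:75152001-75152250 and ends at the base before a RefSeq start. Pdgfd lies at chr9:6168236-6168362 and ends at the base before the annotated gene. Capitals mark matches to TTNCNNAA, the letters of C/EBP factors, in Pdgfra, and to TATAAA, the TATA box, in Pdgfd.
Pdgfra: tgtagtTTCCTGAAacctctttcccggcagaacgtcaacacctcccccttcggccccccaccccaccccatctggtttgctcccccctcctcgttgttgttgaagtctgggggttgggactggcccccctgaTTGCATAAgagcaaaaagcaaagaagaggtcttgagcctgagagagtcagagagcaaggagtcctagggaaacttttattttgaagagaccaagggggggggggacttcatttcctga
Pdgfd: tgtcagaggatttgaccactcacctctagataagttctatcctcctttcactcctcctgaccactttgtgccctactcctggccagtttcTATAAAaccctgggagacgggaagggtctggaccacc
RefSeq windows were found for 4 of the 7 members. Motifs were searched on both strands in the 250 bases before each RefSeq start, and the matches did not overlap. For Pdgfd that window runs on into the annotated gene, and only its 127 bases before the gene are printed. The C/EBP letters matched at 244 to 237 and at 118 to 111 bases upstream in Pdgfra, and 36.8% of 32851 windows of the same length hold such a match. The TATA box of Pdgfd ran from 37 to 32 bases upstream of the annotated gene, and 12.4% of the 250-base windows hold one. The CCAAT box (CCAAT, in 33.8% of windows), the GC box (GGGCGG, 32.7%), the early B cell factor motif (0.779%), the forkhead letters (TGTTTAC, 3.17%) and the homeobox letters (TAATTA, 4.84%) had no match in the 250 bases of either gene. A match describes letters and is not evidence of binding.

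Leaving out Kitl, on which the cells were sorted, all 9 perivascular stromal markers, among them Adipoq, were called higher in Scf-GFP+ cells. All 8 pan-haematopoietic markers, among them Cd53, were called lower. By the same rule, given below, 9.01% of all genes were called higher and 7.89% lower. Some arrays also stood apart in ways that the groups do not explain. Scf-GFP+ replicate 1 carried more neutrophil RNA than the other Scf-GFP+ arrays. The mean of 10 neutrophil markers was 9.53 in it, 5.83 and 6.01 in replicates 2 and 3, and 12.11 to 12.17 in the marrow arrays (log2 scale). In the same group, Xist, an RNA of female cells, was at 11.50 in replicate 1, at 11.81 in replicate 2 and at 5.04 in replicate 3, next to 4.99 to 5.10 for marrow. Eif2s3y, a Y-linked gene, was at 4.41, 3.72 and 8.23 in Scf-GFP+ replicates 1, 2 and 3, and at 7.33 to 7.97 in marrow. Each member is therefore also given without replicate 1 and, where it matters, for replicate 3 alone against whole marrow, from a fit with a term for the Xist split.

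Both signalling receptors and 1 of the 4 ligands, Pdgfd, were higher in Scf-GFP+ cells, and no member was lower. A gene was called at an adjusted p below 0.05 (limma, Benjamini-Hochberg over all genes) where the groups also differed by 2-fold or more. By this rule 3 of the 7 members were called higher, where 9.01% of all genes were called higher and 7.89% lower. The ligands Pdgfa, Pdgfb and Pdgfc and the receptor-like Pdgfrl were not called. In these bulk samples, fewer cells of a type and less RNA per cell cannot be told apart.

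**Figure D1:**
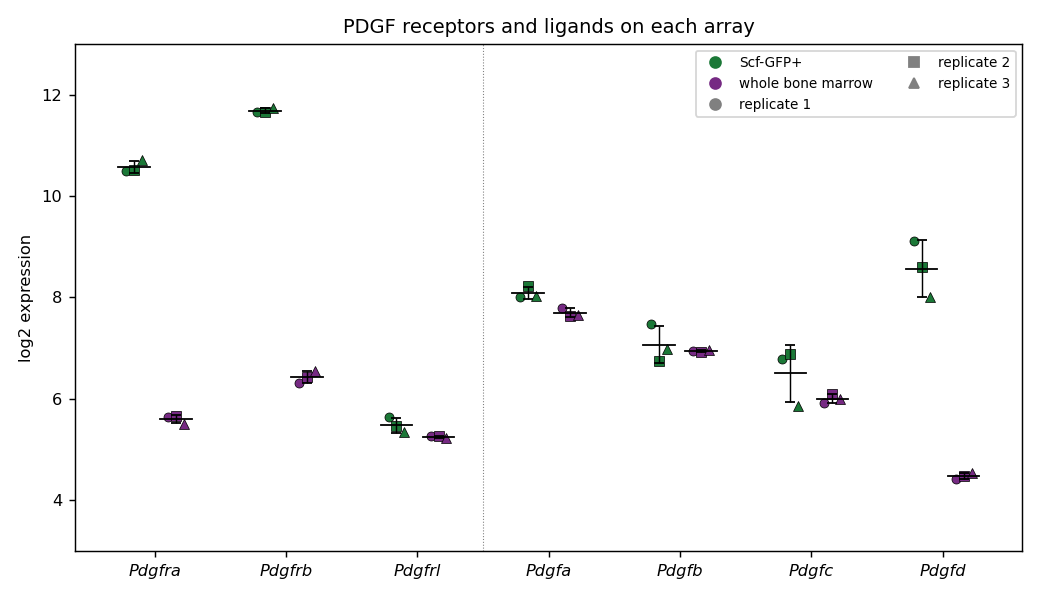
Log2 expression of the 7 PDGF family members (y axis) on each array. Green points are Scf-GFP+ arrays, purple points whole bone marrow, shapes give the replicate number, and black lines give the mean ± SD of 3 arrays; Pdgfra, Pdgfrb and Pdgfd show a wide gap between the groups and the other 4 do not.

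The alpha receptor gene Pdgfra measured 10.50, 10.52 and 10.71 in the Scf-GFP+ arrays and 5.64, 5.66 and 5.51 in whole marrow, in log2 units. The groups lay far apart and the replicates of each were close together. The log2 difference over 3 arrays a group was 4.97 ± 0.11 SE (limma adjusted p = 2.10e-06), a 31.4-fold difference with a 95% interval of 26.1-fold to 37.8-fold. Pdgfra ranked 95 of 19938 genes by its difference. Its marrow values lay not far above the arrays' first quartiles of 5.19 to 5.31, where arrays lose resolution, so the size of the fold is approximate. Without Scf-GFP+ replicate 1 the log2 difference was 5.01.

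The beta receptor gene Pdgfrb measured 11.66, 11.66 and 11.74 in the Scf-GFP+ arrays and 6.32, 6.44 and 6.54 in whole marrow. Its groups did not overlap either, and its SD over the Scf-GFP+ arrays, 0.05, was the smallest of the 7 members in that group. The log2 difference was 5.25 ± 0.11 SE (limma adjusted p = 2.01e-06), or 38.1-fold with a 95% interval of 31.9-fold to 45.4-fold, which placed it at rank 72. Without Scf-GFP+ replicate 1 it was 5.26. Over 13 alternatives the difference ran from 4.91 to 5.11 for Pdgfra and from 5.19 to 5.31 for Pdgfrb.

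Pdgfrl encodes a protein that resembles the outer part of a PDGF receptor and has no kinase domain. It measured 5.64, 5.46 and 5.34 in the Scf-GFP+ arrays and 5.26, 5.27 and 5.23 in whole marrow. The 3 Scf-GFP+ values lay just above those of marrow, close to those first quartiles. The log2 difference of 0.23 ± 0.11 SE did not pass the test (limma adjusted p = 0.193), with a 95% interval of -0.04 to 0.50, and was 0.15 without Scf-GFP+ replicate 1.

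**Figure D2:**
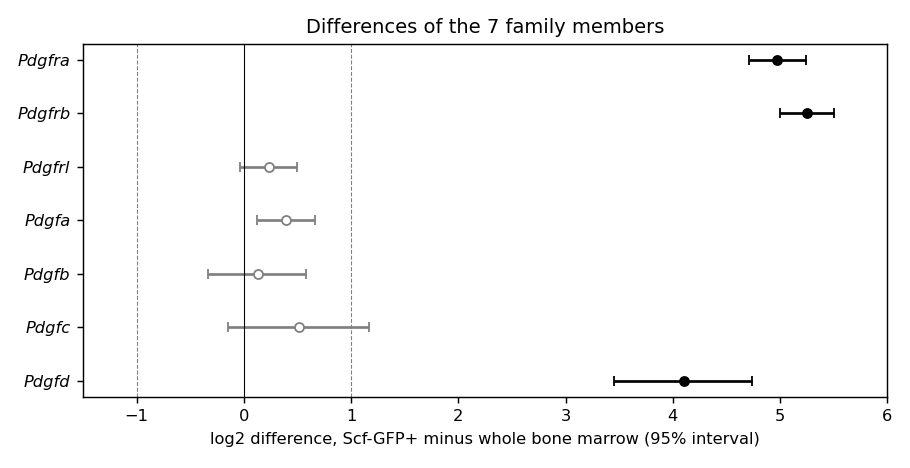
Log2 difference of each member (x axis), Scf-GFP+ minus whole bone marrow, with limma's 95% interval. Filled points were called, open points were not, and dashed lines mark 2-fold; the intervals of Pdgfra (4.71 to 5.24), Pdgfrb (5.00 to 5.50) and Pdgfd (3.45 to 4.74) lie wholly beyond it.

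Among the ligands, Pdgfd, whose dimer acts on the beta receptor, measured 9.12, 8.60 and 8.0 in the Scf-GFP+ arrays and 4.42, 4.47 and 4.54 in whole marrow. Every Scf-GFP+ array was far above every marrow array, yet the Scf-GFP+ arrays differed among themselves with an SD of 0.56, against 0.06 in marrow. The log2 difference was 4.10 ± 0.27 SE (limma adjusted p = 7.40e-05), or 17.1-fold. Its 95% interval in folds ran from 11 to 26.7. The marrow values were under each marrow array's first quartile, so the size of the fold is approximate. The log2 difference was 3.82 without Scf-GFP+ replicate 1 and 4.38 without replicate 3, and it was called both times. Replicate 3 against marrow gave 3.53, a value of a single Scf-GFP+ array whose error can only be taken from the spread of the other arrays.

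Pdgfa, a ligand of the alpha receptor, measured 8.01, 8.23 and 8.03 in the Scf-GFP+ arrays and 7.80, 7.63 and 7.66 in whole marrow. The groups did not overlap, but the difference was small at 0.39 ± 0.11 SE on the log2 scale, or 1.31-fold. Its adjusted p was 0.0441 (limma), below the threshold for p but under 2-fold, so it was not called. Over 13 alternatives the limma adjusted p ran from 0.0433 to 0.285, and its 95% interval of 0.12 to 0.66 did not reach 2-fold. Without Scf-GFP+ replicate 1 the difference was 0.43.

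Pdgfb, whose chain binds both receptors, measured 7.47, 6.75 and 6.99 in the Scf-GFP+ arrays and 6.94, 6.92 and 6.96 in whole marrow. The groups overlapped, with replicate 1 the highest and replicate 2 the lowest of all 6 arrays. The log2 difference was 0.13 ± 0.19 SE with a 95% interval of -0.33 to 0.58 (limma adjusted p = 0.666). Without Scf-GFP+ replicate 1, the array with the neutrophil RNA, it was -0.08 (limma adjusted p = 0.727). Whether that RNA has a part in the value of replicate 1 was not tested. The megakaryocyte and platelet marker Pf4 was lower by -3.61 ± 0.45 SE in Scf-GFP+ cells (limma adjusted p = 0.00144), and the other 5 of the 6 markers measured, of 10 listed, were not called.

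Pdgfc, a ligand of the alpha receptor that is secreted in latent form, measured 6.78, 6.89 and 5.85 in the Scf-GFP+ arrays and 5.91, 6.09 and 6.00 in whole marrow. Replicates 1 and 2 lay above all marrow arrays and replicate 3 below them. The log2 difference over all arrays was 0.51 ± 0.28 SE and did not pass the test (95% interval -0.15 to 1.17, limma adjusted p = 0.234). Without replicate 1 it was 0.37. Without replicate 3 it was 0.83 (limma adjusted p = 0.00583), still under 2-fold, and replicate 3 against marrow gave -0.15.

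Of the 7 members, 5 had groups that did not overlap, all with Scf-GFP+ higher, where 19% of all genes did so in that direction and 26.4% in the other. These 5 include Pdgfa and Pdgfrl, whose differences were small, so the absence of overlap alone does not mark a large difference here.

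Pdgfc and Pdgfd were lowest in replicate 3 among the Scf-GFP+ arrays, as were most endothelial markers and part of the mural ones. So was Pdgfrl, at 5.64, 5.46 and 5.34 in replicates 1, 2 and 3, close to the arrays' first quartiles. Replicate 3 was the lowest Scf-GFP+ array for 8 of 9 endothelial markers, although Kdr rounds to 6.05 in both replicates 2 and 3. It was the lowest for 5 of 9 mural and smooth muscle markers, with 3 lowest in replicate 1 and 1 in replicate 2. The share of all genes that were lowest in replicate 3 was not taken, so these counts have no background beside them. The pericyte gene Rgs5, which dampens G protein signalling, measured 10.01, 9.98 and 8.66 in Scf-GFP+ replicates 1, 2 and 3. Cdh5, the cadherin of endothelial junctions, measured 7.54, 8.09 and 6.55, and Emcn, endomucin of the endothelial surface, 7.5, 7.68 and 7.02. These 3 were lowest in replicate 3, like Pdgfc and Pdgfd. The mural genes Notch3 (8.76, 8.85 and 9.47) and Abcc9 (9.01, 8.86 and 9.5) were instead highest in replicate 3. The mean of the 9 endothelial markers was 7.02, 6.76 and 6.37 in the Scf-GFP+ arrays and 6.30 to 6.42 in marrow. Of the 9, 2 were called higher and 1, Pecam1, was called lower (-1.90 ± 0.26 SE). Cdh5, one of the 2, lost its call when any 1 array other than Scf-GFP+ replicate 3 was left out (limma adjusted p from 0.0675 to 0.11). With the Xist term, where replicate 3 alone stands for Scf-GFP+ cells, Cdh5 differed by 0.55 and was not called. The mean of the 9 mural and smooth muscle markers was 7.73, 7.93 and 7.61 against 6.63 to 6.65, with 4 called higher and none lower. For all genes these shares were 9.01% higher and 7.89% lower. Replicate 3 is also the only Scf-GFP+ array with low Xist. The part of vessel cells or of sex in the values of Pdgfc and Pdgfd was not tested. Pdgfra and Pdgfrb were not lowest in replicate 3.

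**Figure D3:**
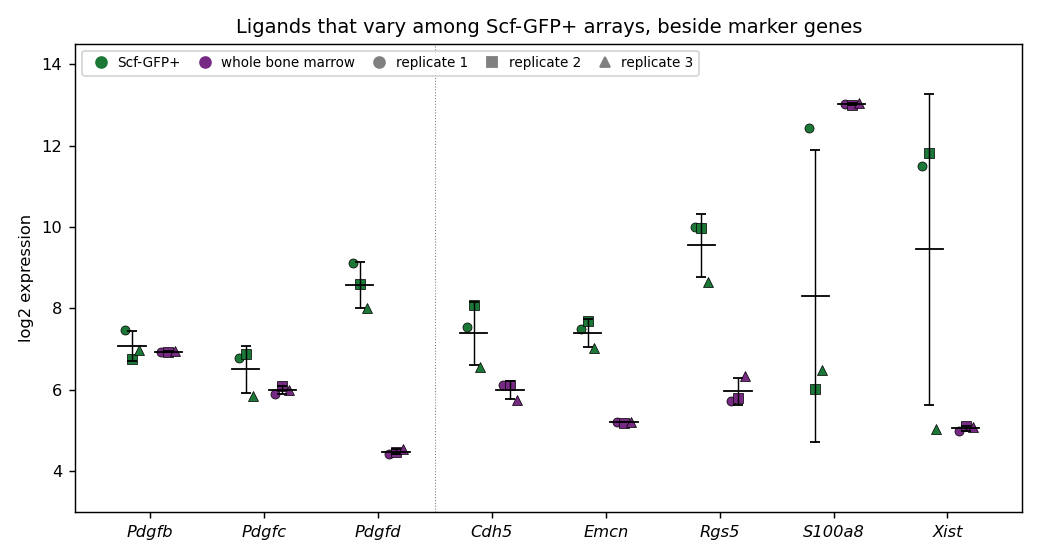
Log2 expression (y axis) of the ligands Pdgfb, Pdgfc and Pdgfd beside Cdh5, Emcn, Rgs5, S100a8 and Xist, with array colours, shapes and mean ± SD of 3 arrays drawn as green for Scf-GFP+ and purple for whole marrow. Pdgfc, Pdgfd, Cdh5, Emcn and Rgs5 are lowest in Scf-GFP+ replicate 3 (triangle), and S100a8 of neutrophils is high in Scf-GFP+ replicate 1 (circle).

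The genes with the most similar profiles were found by the root mean square distance over the 6 arrays, after each gene was centred on its own mean. A small distance mostly means a gap of similar size between the groups. Nearest to Pdgfra were Angpt1, a ligand of the receptor Tek, at 0.037, the fibroblast growth factor receptor gene Fgfr2 at 0.069, Ms4a4d at 0.087 and Clmp, an adhesion molecule, at 0.114. Nearest to Pdgfrb were the chemokine Cxcl14 and Ms4a4d, both at 0.121, the semaphorin Sema6d at 0.137 and Fermt2, an activator of integrins, at 0.146. The distance between Pdgfra and Pdgfrb themselves was 0.179. Pdgfd lay 0.589 from Pdgfra and 0.674 from Pdgfrb. Its nearest genes were Itga1, a collagen-binding integrin subunit, at 0.155, Phldb2 at 0.208, the pentraxin Ptx3 at 0.210 and Cped1 at 0.232. Each was highest in Scf-GFP+ replicate 1, like Pdgfd, whose profile they were picked to match.

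**Figure D4:**
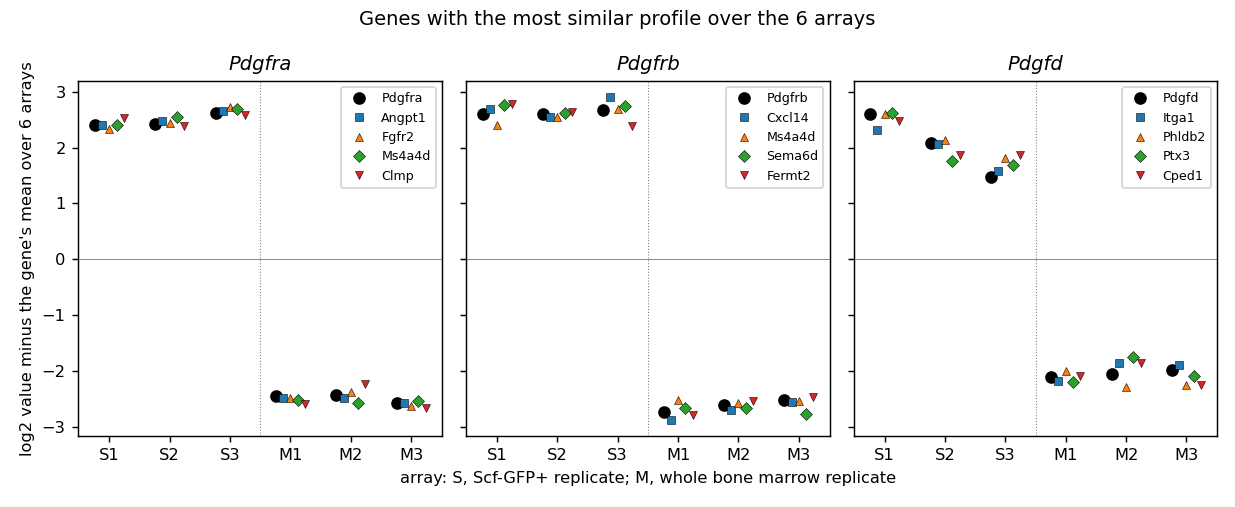
Log2 value minus the gene's mean over 6 arrays (y axis) on each array (x axis), for Pdgfra, Pdgfrb and Pdgfd in black and the 4 genes nearest to each in colour; S stands for Scf-GFP+ and M for whole marrow replicates. The genes picked for Pdgfra and Pdgfrb vary less across the Scf-GFP+ arrays than those picked for Pdgfd, as do the members they were picked to match. Pdgfd and the genes picked as nearest to its profile are highest in replicate 1.

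Of 7 genes that process the ligands, 1 was called higher and none lower, a share near the 16.9% of all genes called in either direction, and their median log2 difference was -0.15, against -0.08 over all genes. Pcsk5, a proprotein convertase, measured 7.79 to 8.04 in Scf-GFP+ cells and 6.52 to 6.82 in marrow, a log2 difference of 1.22 ± 0.13 SE (limma adjusted p = 6.35e-04). Its relatives Furin, Pcsk6 and Pcsk7 differed by 0.08, -0.15 and -0.15 and were not called. Plat, a plasminogen activator that cleaves PDGF-C, differed by -0.18, and Plau and St14, which cleave PDGF-D, by -0.64 and -0.61. None of these 3 was called. Plau passed on adjusted p alone (limma, 0.0238).

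Proteins that bind PDGF or work beside its receptors had 5 of 9 genes called higher and 1 lower, against 9.01% and 7.89% of all genes. Their median log2 difference was 2.45. Sparc, a matrix protein that binds PDGF-B, differed by 5.38 ± 0.25 SE and measured 12.89 to 13.08 in Scf-GFP+ cells and 7.23 to 8.19 in marrow. A2m, a protease inhibitor of plasma that also carries growth factors, differed by 4.43 ± 0.13. Nrp1, a co-receptor, differed by 3.77 ± 0.17, the endocytic receptor Lrp1, a partner of the beta receptor, by 2.51 ± 0.21, and the integrin subunit Itgav by 2.45 ± 0.17. Thbs1, thrombospondin, was called lower at -1.79 ± 0.20. The integrin subunit Itgb3, which pairs with Itgav, differed by -0.40 ± 0.26 and was not called. Hspg2, perlecan, at 0.86 ± 0.11 (1.02 with the Xist term) and S1pr1, a sphingosine phosphate receptor, at 0.95 ± 0.42 were not called either. S1pr1 in whole marrow measured 8.01 and 7.99 in replicates 1 and 2 and 9.48 in replicate 3, and without that array it was called higher (1.44, limma adjusted p = 0.00612; 0.15 with all arrays).

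Of 25 measured genes that carry the signal from the receptors, 7 were called higher, 3 lower and 15 neither, with a median log2 difference of 0.36. Over all genes, 9.01% were called higher and 7.89% lower. The adaptor Grb10 differed by 2.57 ± 0.26 SE, the Src family kinase Yes1 by 2.35 ± 0.29 and the docking protein Gab1 by 2.04 ± 0.24. Phospholipase C gamma (Plcg1) differed by 1.55 ± 0.28, the transcription factor Stat5a by 1.35 ± 0.27 (0.75, not called, with the term for the Xist split) and Rasa1, a brake on Ras, by 1.34 ± 0.14. For phosphoinositide 3-kinase, the catalytic subunit gene Pik3cb was lower by -2.66 ± 0.19 and the regulatory subunit gene Pik3r1 was higher by 1.21 ± 0.19. Another catalytic subunit gene, Pik3ca, differed by 0.60 ± 0.17 and another regulatory one, Pik3r2, by 0.36 ± 0.21, and neither was called. Pik3cb measured 5.96 to 6.46 in Scf-GFP+ cells and 8.59 to 9.09 in marrow, with no overlap. The adaptor Grb2 at -1.11 ± 0.11 (-0.98, under 2-fold, with the Xist term) and the kinase Fyn at -1.21 ± 0.29 were called lower. Fyn lost its call when Scf-GFP+ replicate 2 (limma adjusted p = 0.0718), Scf-GFP+ replicate 3 (0.0676) or whole marrow replicate 2 (0.0564) was left out. It was not called with the Xist term either (-1.35). Without whole marrow replicate 3 it fell under 2-fold (-0.90), and with the replicate number as a block its limma adjusted p was 0.0515, in a range of 0.0142 to 0.103 over the alternatives. Stat3 at 0.68 ± 0.11, Nck1 at 0.07 ± 0.17 and Shc1 at 0.39 ± 0.20 were not called.

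Among 13 negative regulators, 3 were called higher, none lower and 10 neither, where 9.01% of all genes were called higher and 7.89% lower. Their median log2 difference was 0.09. Spry1, an inhibitor of the Ras pathway, measured 8.97, 8.67 and 10.28 in the Scf-GFP+ arrays and 7.01 to 7.17 in marrow, a difference of 2.21 ± 0.40 SE (limma adjusted p = 0.00703). It was highest in replicate 3, the array where Pdgfc and Pdgfd were lowest. Socs3, a feedback inhibitor of cytokine signalling, differed by 1.93 ± 0.23. The ubiquitin ligase Cblb differed by 1.05 ± 0.17 and fell under 2-fold without Scf-GFP+ replicate 1 (0.94) or whole marrow replicate 2 (0.91). With the Xist term it also differed by 1.05 but was not called. The phosphatases Ptpn12 (0.90 ± 0.16), Acp1 (-0.53 ± 0.27) and Ptpn1 (-0.25 ± 0.37) were not called, although Ptpn12 reached 2-fold without whole marrow replicate 3 (1.0, limma adjusted p = 0.0121).

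The kinases closest to the PDGF receptors are Kit, Csf1r and Flt3, which with them form class III of the receptor tyrosine kinases. None of these 3 was higher in Scf-GFP+ cells, and 2 were called lower. Leaving out Kitl, on which the cells were sorted, their ligands Csf1, Il34 and Flt3l were all called higher. Of all genes, 9.01% were called higher and 7.89% lower. Csf1r, the receptor of macrophages, measured 5.96, 6.27 and 6.21 in Scf-GFP+ cells and 7.92, 8.0 and 8.80 in marrow (-2.09 ± 0.25 SE, limma adjusted p = 0.0011). Flt3, a receptor of early blood progenitors, was lower by -1.79 ± 0.24, and Kit, the receptor of stem cell factor, differed by -0.26 ± 0.19 and was not called. The ligands Il34 and Csf1 of Csf1r differed by 3.73 ± 0.47 and 3.41 ± 0.25, and Flt3l by 1.15 ± 0.14. Kitl differed by 5.57 ± 0.22, which is no finding because the cells were sorted on that gene.

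Early response genes, which PDGF and serum switch on within the first hour in fibroblasts, were mostly lower in Scf-GFP+ cells. Of 12, 8 were called lower, 1 higher and 3 neither, where 7.89% of all genes were called lower and 9.01% higher. Their median log2 difference was -1.72. Egr2 differed by -2.96 ± 0.25 SE, Ier3 by -2.91 ± 0.17, Ier2 by -2.47 ± 0.19, Jun by -2.30 ± 0.30, Fos by -1.93 ± 0.23 and Junb by -1.52 ± 0.22. Fosb at -1.93 ± 0.50 lost its call when whole marrow replicate 1 (limma adjusted p = 0.0964) or replicate 3 (0.0834) was left out (range 0.00999 to 0.286). Egr1 at -1.02 ± 0.21 fell under 2-fold without Scf-GFP+ replicate 2 (-0.79) or whole marrow replicate 2 (-0.97), and just under it without whole marrow replicate 3 (-1.0). With the Xist term Egr1 differed by -0.68 and Fosb by -1.22, and neither was called. The gene called higher was Ccl2, a chemokine first found as a PDGF-induced gene, which measured 9.64, 9.83 and 9.71 in Scf-GFP+ cells and 8.78, 7.45 and 7.53 in marrow (1.81 ± 0.35). With the Xist term its limma adjusted p was 0.0823. Cxcl1, another such chemokine, at 0.49 ± 0.14, Myc at -0.22 ± 0.17 and Srf at -0.78 ± 0.19 were not called. Blood cells of the marrow also express many of these genes, and cell type and the double sort cannot be told apart here.

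**Figure D5:**
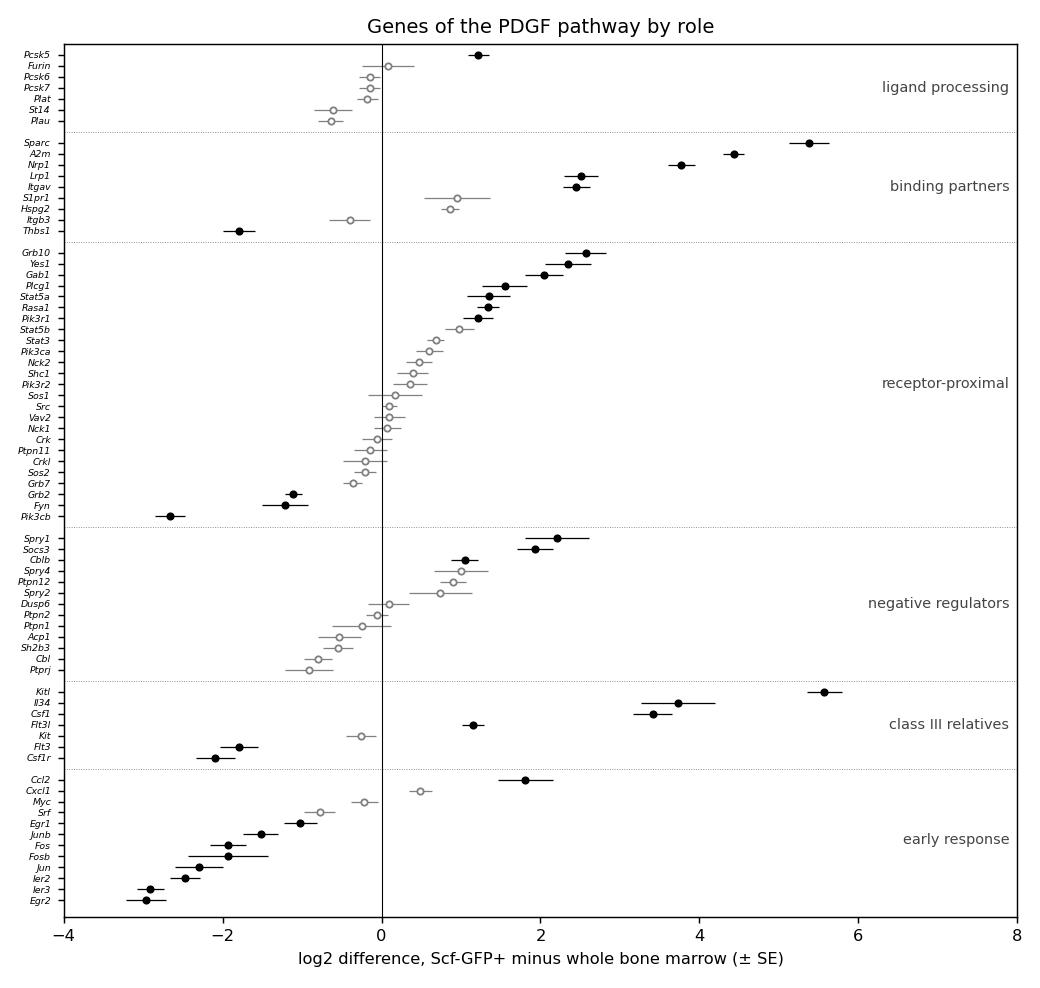
Log2 difference of each measured gene (x axis), Scf-GFP+ minus whole bone marrow, with its SE, in 6 lists of the PDGF pathway. Filled points were called and open points were not. The binding partners hold 5 genes called higher of 9, and the early response list 8 called lower of 12. Of all genes, 9.01% were called higher and 7.89% lower.

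Of 14 measured protein-coding neighbours of the members on the chromosome, 3 were called higher, 2 lower and 9 neither. Of all genes, 9.01% were called higher and 7.89% lower, or 16.9% in either direction. Kit follows Pdgfra and Csf1r follows Pdgfrb in the RefSeq order, and the receptors differed by 4.97 and 5.25 where these neighbours differed by -0.26 and -2.09. Gsx2, on the other side of Pdgfra, measured 5.53 to 5.62 in Scf-GFP+ cells and 5.39 to 5.77 in marrow. Casp12, a caspase gene next to Pdgfd, measured 8.60, 9.5 and 8.77 in Scf-GFP+ cells and 4.74, 4.73 and 5.01 in marrow, a difference of 4.13 ± 0.24 SE (limma adjusted p = 4.72e-05). Its marrow values were under each marrow array's first quartile, so the size of this difference is approximate. Ddi1 lies inside Pdgfd and differed by 0.09 ± 0.12. The others called were Slc7a2, an amino acid transporter, beside Pdgfrl at 1.84 ± 0.19, Mtus1 on its other side at -1.20 ± 0.27, and Ctso, a cathepsin, beside Pdgfc at 1.72 ± 0.30. With the Xist term Ctso differed by 1.10 and was not called (limma adjusted p = 0.0527). Mtus1 lost its call without Scf-GFP+ replicate 3 (-0.87) and when any 1 marrow array was left out (limma adjusted p = 0.0529, 0.0531 and 0.0661).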

How the data were processed

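RNA of 6 samples was amplified with the NuGEN Pico system and hybridised to Affymetrix Mouse Gene ST 1.0 arrays, per the labels' protocols. The authors deposited log2 values per transcript cluster, and their tools, per the submitters' processing notes, included limma, affy and RMA, with no version given. Such values come without a call of presence, so low is not absent, and levels of different genes are not compared. Array medians were 6.564 to 6.631, and the number of arrays limits the precision. Of 28940 rows, 21789 had 1 gene symbol, 1621 several and 5530 none. Symbols were updated through Entrez identifiers (RefSeq table, GRCm38.p6), and the row with the highest mean stood for each of 19938 genes. Groups were compared with limma 3.58.1 in R 4.3.3 (lmFit, eBayes, no covariate) over all genes, and every adjusted p is from limma with Benjamini-Hochberg adjustment. The fit was tested on simulated data. Members and lists were chosen with earlier results of these data known. Named are the members, called genes (at most 8 a list), the 3 brightest others per list, markers, chromosomal neighbours and the 4 nearest profiles of called members. Plat, Plau, St14, Pik3r1, Pik3r2, Pik3ca, Grb2, Egr1, Rgs5, Notch3, Abcc9, Cdh5, Emcn, Pecam1, Pf4, S100a8 and Eif2s3y were named after their values were seen. An exact permutation test of 3 arrays against 3 cannot go below a two-sided p of 0.10 and was not used. Alternatives were other scalings, a dim-gene filter, averaged rows, a variance trend, a term for sex-linked transcripts, a replicate block, no fold threshold and leaving out each array.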

Additional observations from a re-analysis of the deposited data

How the results depend on the processing

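Under the 13 alternatives that keep the 2-fold threshold, Pdgfra, Pdgfrb and Pdgfd stayed called higher and Pdgfa, Pdgfb and Pdgfc stayed not called. Pdgfrl stayed not called in the 12 that kept it, since the filter on dim genes removed it. Pdgfb turned to -0.08 without Scf-GFP+ replicate 1, in a range of -0.08 to 0.29 when single arrays were left out. Pdgfc turned to -0.15 with the term for sex-linked transcripts, where replicate 3 alone stands for Scf-GFP+ cells. That term also changed the counts of receptor-proximal genes and of early response genes called in either direction, and the cause was not tested. On adjusted p alone, 4 family members were called higher, with Pdgfa the addition, 1 ligand processing gene and 1 negative regulator were called lower, 2 early response genes higher, and 2758 of all genes higher and 2635 lower. Leaving out single arrays gave 0 to 1 negative regulators and 6 to 8 early response genes called lower. The labels do not say that the replicate numbers pair the samples. Same-numbered arrays had correlations of deviations of -0.063, -0.022 and 0.066, and differently numbered ones -0.087 to 0.108. With 3 arrays a group these values do not settle whether the samples were paired. With the replicate block Pdgfd differed by 4.10 (limma adjusted p = 7.90e-04), Pdgfra by 4.97 and Pdgfrb by 5.25, and the family's 3 higher calls stood. Arrays lose resolution near their lower end, which limits Pdgfrl in both groups and Pdgfra and Pdgfd in marrow.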
